A study of Mus musculus with 4 samples.

Results

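The cytosines described here carried 5-hydroxymethylcytosine (5hmC) in wild-type haematopoietic stem and progenitor cells, were read at 0 in cells without HDAC6, and had no entry among the sites with altered 5-methylcytosine (5mC). They were taken from the authors' deposited table of 5hmC differences as the positions with a knockout level equal to 0 and a wild-type level above 0 whose chromosome and start were absent from the authors' deposited table of 5mC differences. Of the 71864 listed 5hmC positions, 18400 met this rule, a share of 25.6%. A further 3164 positions at 0 in the knockout had a listed 5mC difference and were left out. They are called wild-type-only positions below. The members were chosen by both of these 5hmC levels, so the loss of the mark in the knockout is the rule and not a result.

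The study compared LSK cells, the fraction of mouse bone marrow without lineage markers, with high Sca-1 and with c-Kit, in which the blood stem cells reside, between wild-type mice and mice with a knockout of Hdac6, which lies on chromosome X and encodes a mainly cytoplasmic lysine deacetylase. For each genotype 1 library was made by whole-genome bisulfite sequencing (WGBS) and 1 by its oxidative form (oxWGBS), so 4 libraries formed 4 groups of 1 and no difference has a replicate check. The labels number the WGBS libraries 1 and the oxWGBS libraries 2, so the reads contrasted for 5hmC may come from different preparations or animals. No strain, sex or age is stated for the animals, nor how many gave cells, nor which stretch of Hdac6 was removed. No expression was measured, so the LSK identity could not be checked against marker genes. All levels below are values of the authors' deposited tables, written as percent. The printed p-values and q-values come from the authors and set single libraries against each other.

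TET enzymes oxidise 5mC to 5hmC and use 2-oxoglutarate, which isocitrate dehydrogenases such as IDH1 produce; the series title names IDH1 as a substrate of HDAC6. Bisulfite treatment alone reads 5mC and 5hmC alike, whereas prior chemical oxidation leaves 5mC as the only base read as methylated, so 5hmC is estimated from the contrast of both reads. In mammalian cells 5hmC is known from gene bodies, enhancers and the flanks of CpG-rich promoters. The sources used here give neither the libraries behind each deposited level nor the coverage at each cytosine. A level of 0 is therefore a listed value and does not show that the mark was absent.

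Sequence from RefSeq (GRCm38.p6) was available for the 250 bases before each annotated start site and the 50 bases after it, for 32851 windows of 27025 genes. In these windows lay 228 wild-type-only positions. Among the 250 upstream bases 18 genes had 2 or more of them, and 16 of these 18 had no position in the window that was higher in the knockout. Except for that of Bhmg1, the stretches below hold 2 wild-type-only positions each and lie outside the RefSeq model of their own gene. They are examples, and others such as those of Gm34194, Gm16279 and Gm14040 are not shown. They are written 5′ to 3′ on the strand of the gene, and capitals mark the CG of each wild-type-only position. The short stretch of Bhmg1, which lies inside its gene model, is added because 3 such positions fall within its 30 bases.
Iho1, chr9:108431842-108432076, minus strand: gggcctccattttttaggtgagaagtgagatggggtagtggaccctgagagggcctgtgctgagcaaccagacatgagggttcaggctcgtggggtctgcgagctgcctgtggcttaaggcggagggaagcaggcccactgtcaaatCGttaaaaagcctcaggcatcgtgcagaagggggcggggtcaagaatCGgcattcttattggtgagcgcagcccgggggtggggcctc
Prss50, chr9:110857714-110857963, plus strand: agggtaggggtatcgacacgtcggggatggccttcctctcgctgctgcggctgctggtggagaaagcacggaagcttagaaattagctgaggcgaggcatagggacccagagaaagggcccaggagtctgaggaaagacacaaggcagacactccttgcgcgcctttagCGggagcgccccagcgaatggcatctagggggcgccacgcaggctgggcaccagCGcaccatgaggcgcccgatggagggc
Fasl, chr1:161788496-161788745, minus strand: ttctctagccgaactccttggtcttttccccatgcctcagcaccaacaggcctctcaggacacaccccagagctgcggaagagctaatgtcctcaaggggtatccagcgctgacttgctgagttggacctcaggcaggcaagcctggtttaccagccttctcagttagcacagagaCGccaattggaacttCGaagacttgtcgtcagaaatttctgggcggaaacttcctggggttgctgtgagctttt
Ano2, chr6:125690169-125690418, plus strand: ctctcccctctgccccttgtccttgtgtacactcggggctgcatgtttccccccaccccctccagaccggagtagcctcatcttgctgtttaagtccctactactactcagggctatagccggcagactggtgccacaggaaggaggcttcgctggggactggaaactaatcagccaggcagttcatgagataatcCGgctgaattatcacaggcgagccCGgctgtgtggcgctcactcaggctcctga
Bhmg1, chr7:19118460-19118489, minus strand: ctgcccCGggtgcgCGtgcgcactCGccgc

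Bhmg1 held the most wild-type-only positions of any promoter window. The gene, also named Meiosin, encodes a factor needed for entry into meiosis in mouse germ cells. Its window held 6 of them among 35 CGs, with wild-type 5hmC from 13.5% to 30.6% in the authors' deposited table. Going upstream, the positions 7, 120, 130, 138 and 176 bases before the start site were at 16.0%, 21.6%, 19.4%, 30.6% and 20.5% in wild type in the authors' deposited table. The smallest q of these was 0.372 in the authors' deposited table, so no single position passed a q of 0.05. The RefSeq gene model of Bhmg1 extends beyond this start site, as do those of 4930447C04Rik, C1ql4, Cntn4, Dpp6 and Tmem184a, so these windows lie partly or wholly inside the gene.

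In 4930447C04Rik, also named Six6os1 and encoding a synaptonemal complex protein, 3 positions were at 36.4%, 26.7% and 40.7% in wild type and read at 0 without HDAC6 in the authors' deposited table. Gm47815, a long non-coding RNA gene, held 3 positions at 25%, 25% and 29.7% in wild type. C1ql4, which encodes a secreted C1q-like protein, held 3 at 18.4%, 13.7% and 13.0%, next to 1 position that was higher in the knockout. All other genes in this group of 18 held 2 positions upstream.

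At Iho1, which encodes a protein needed for meiotic DNA breaks, wild-type levels were 19.1% and 23.5%, 55 and 102 bases upstream, in the authors' deposited table. Prss50, a testis serine protease gene, had 13.5% and 15.2%. Fasl, the gene of the death ligand of cytotoxic lymphocytes, had 23.3% and 16.3%, and Ano2, a calcium-activated chloride channel gene, had 20.4% and 35%. The highest pair was at Cntn4, which encodes a neuronal adhesion protein, with 42.1% and 40% in the authors' deposited table, before a start site that lies inside the gene model. Levels in these windows thus lay on both sides of the median of the whole set, 25%. Rbm46, which encodes a germ cell RNA-binding protein, had 17.7% and 21.2% upstream and 17.5% at a position 30 bases inside the transcript.

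Promoter windows rich in CG carried few wild-type-only positions for their number of cytosines. Windows with 5 to 9 CGs held 2.20 per 1000 CGs, and windows with 20 to 99 CGs held 0.192. The mirror class, positions at 0 in wild type and above 0 in the knockout with no listed 5mC difference, went from 3.00 to 0.135 per 1000 CGs over the same windows. In the richest windows there were 44 wild-type-only and 31 knockout-only positions, in windows with 5 to 9 CGs 82 and 112, and over all listed positions 18400 and 29813. The 95% Wilson intervals of the 2 classes overlapped in the richest windows, 0.143 to 0.257 and 0.0952 to 0.192 per 1000 CGs. Positions of the same window are not independent, and 6 of the 44 lay at Bhmg1, so nothing is read from the order there. The median CG count was 7 over all windows, 8 over windows with a wild-type-only position and 15 over those with 2 or more upstream. Windows with more CGs have more sites that can meet these counts, so nothing is read from the rise.

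At Hdac6 itself, the targeted gene, 2 5hmC positions were listed and both were lower in the knockout. The first, chrX:7937031, went from 63.2% in wild type to 0 without HDAC6 (p = 9.02e-06, q = 0.0642 in the authors' deposited table) and is a wild-type-only position. The second, chrX:7937033, went from 55.6% to 9.52% in the authors' deposited table and is not. Since the deleted stretch is not stated, these levels do not check the genotype.

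Wild-type 5hmC at the 18400 positions was mostly low to intermediate. The lowest level was 10%, the quartiles were 19.4%, 25% and 33.3%, and the highest level was 100% in the authors' deposited table. Levels of 20% or more were found at 13522 positions (73.5%), of 50% or more at 1035 (5.63%), and of 100% at 9. Knockout-only positions had knockout levels with a median of 29.4% and 4287 of 29813 (14.4%) at 50% or more. Both classes start at 10%, every listed position had p under 0.01, and depth per library is unknown, so these levels describe the selected positions and no difference between the genotypes is read from them.

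**Figure D1:**
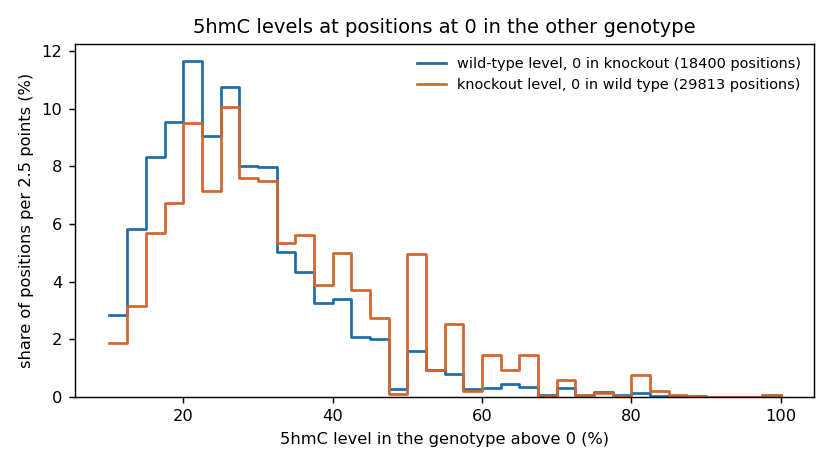
Histogram of 5hmC levels in percent at positions read at 0 in the other genotype, as the share of positions per 2.5 points. Wild-type-only positions (18400) have a median of 25% and knockout-only positions (29813) a median of 29.4%.

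The lowest wild-type level in the set was 10%, at positions such as chr10:74344786, chr13:54765689 and chr14:69749924 in the authors' deposited table; 10% is also the lowest knockout level of knockout-only positions, so it is the floor of the list and not an edge of the rule. Just outside the rule, with knockout levels slightly above 0, lay chr6:47763065, with 16.0% and 0.12% in the authors' deposited table, and chr3:96044813, with 11.4% and 0.35%. Of all 25599 listed positions that were lower in the knockout, 2867 had a knockout level above 0 and at most 5%. The boundary at 0 therefore separates positions with nearly equal values.

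Few of the positions had a small q, as in the whole table. The authors' deposited table gave a q below 0.05 at 185 wild-type-only positions (1.01%), against 1.08% of all listed 5hmC positions, and q was 1 at 15986 (86.9%). The rule used this contrast, so nothing is read from that share. The 185 positions had wild-type levels from 10.1% to 83.3%, with a median of 32.1% in the authors' deposited table. Between genes lay 87 of them (47.0%), against 34.7% of all wild-type-only positions, and near gene ends 27 (14.6%), against 21.7%.

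Levels and surroundings varied among the positions with the smallest p-values. Between genes, chrX:144143147 was at 18% in wild type and read at 0 without HDAC6 (p = 1.17e-104 in the authors' deposited table), and no other 5hmC position was listed within 1000 bp of it. Also between genes, chr18:82162482 was at 51.6% with 2 listed neighbours, neither of them lower in the knockout (p = 2.63e-81 in the authors' deposited table), and chr9:25969931 was at 21.9% with no neighbour (p = 1.86e-75 in the authors' deposited table). Gm40301, a gene model with no role known here, held chr5:50251355, also at 18% (p = 2.89e-55 in the authors' deposited table). Near Mid1, a microtubule-associated ubiquitin ligase gene that straddles the pseudoautosomal boundary in the mouse, chrX:169989635 was at 18.6% (p = 7.97e-22 in the authors' deposited table). Equal levels thus came with very different p-values, and coverage is not stated.

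Higher wild-type levels were found at Me3, F7, Zfp600 and Mroh2a. Me3 encodes a mitochondrial malic enzyme, and chr7:89663170 was at 66.7% in wild type and read at 0 without HDAC6 (q = 8.73e-06 in the authors' deposited table). At F7, the coagulation factor VII gene, chr8:13029871 was at 51.2% (q = 2.69e-06 in the authors' deposited table). Near Zfp600, a zinc finger gene, chr4:146166526 was at 47.1%, and in Mroh2a chr1:88253279 was at 39.8%, both in the authors' deposited table. Lower levels stood at Itgad, an integrin gene (13.6%), at Pdzd2, a PDZ domain gene (16.0%), and at Tmem267 (15.6%). Near the gene models Gm51573, Gm40369 and Gm35814, for which no role is known here, the levels were 13.9%, 37.9% and 46.8%. Of the 12 named positions in or near genes, 7 had no other listed 5hmC position within 1000 bp; at Pdzd2, 5 of 6 such neighbours were lower in the knockout, and at Itgad and Mroh2a 1 of 4.

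By position, a larger share of the set than of knockout-only positions lay near gene ends. Within 2000 bp of either end of a gene lay 21.7% of wild-type-only positions (95% Wilson interval 21.1 to 22.3%), against 18.5% (18.1 to 19%) of knockout-only positions and 19.1% of all listed ones. Deeper inside genes lay 43.7%, against 41.9% of knockout-only positions and a similar 43.2% of all listed ones. Between genes lay 34.7%, against 39.5% of knockout-only positions and 37.7% of all listed ones. The gene end share was higher, 23.5%, at positions above 0 in both genotypes and lower in the knockout, and 19.2% at wild-type-only positions with a listed 5mC difference. These intervals cover counting error over positions and not the spread between animals, and neighbouring positions are not independent. The median wild-type level was 24.0% near gene ends, 25.7% inside genes and 26.1% between genes.

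Distance to an annotated start site gave the same order. Up to 250 bp from a start site, wild-type-only positions made up 31.0% of listed 5hmC (428 of 1382), at 1001 to 2000 bp 29.3%, and beyond 20000 bp 24.1% (8373 of 34804). For each knockout-only position there were 0.787 wild-type-only ones in the nearest class and 0.566 in the farthest. Within 1000 bp of a start site the median wild-type level was 23.5%, and beyond 20000 bp it was 26.1%. Over single autosomes the share ran from 23.7% to 27.0%, on chromosome X it was 26% (237 of 910), on chromosome Y 19.7% (132 of 671) and on unplaced scaffolds 18.8% (65 of 346).

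Cytosines close to the set were mostly lower in the knockout as well. Among other listed 5hmC positions 1 to 50 bp from a wild-type-only position, 89.6% of 2134 were lower in the knockout, against 35.6% of all listed 5hmC positions. Only 763 of these 2134 were not themselves of the set, and the others were lower by the rule. With neighbours of the set included, the share was 71.4% at 51 to 100 bp, 46.4% at 101 to 300 bp and 34.5% at 5001 to 20000 bp. Among neighbours that were not themselves of the set, which removes most lower positions by construction, it was 70.8% of 763 at 1 to 50 bp and 13.0% at 5001 to 20000 bp. Around knockout-only positions, neighbours of that class included, it was 9.13% of 2354 at 1 to 50 bp and 37.8% at 5001 to 20000 bp. Without that class, whose positions are all higher by rule, it was 26.5% of 811 and 62.7% at these distances.

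Listed 5mC near the set was mostly higher in the knockout, although none was listed at the positions themselves. At 1 to 50 bp, 88.2% of 570 listed 5mC positions were higher in the knockout, against 40.3% of all listed 5mC positions. The share was 74.9% at 51 to 100 bp, 57.7% at 101 to 300 bp and 42.0% at 5001 to 20000 bp. Around knockout-only positions it was 19.3% of 602 at 1 to 50 bp and 42.1% at 5001 to 20000 bp. Where both marks were listed at the same cytosine and 5hmC was 0 in the knockout, 5mC was higher in the knockout at 3162 of 3164 positions. Both levels may rest on the same libraries, and positions within about 250 bp, the fragment length in the labels' protocols, can be read from the same fragments; the part of either in these shares was not tested.

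**Figure D2:**
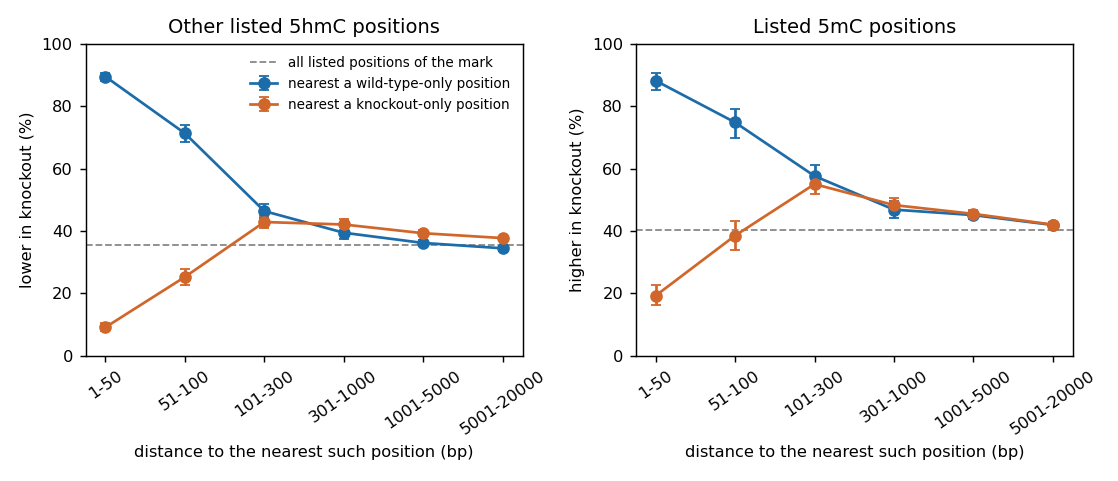
Share in percent of other listed 5hmC positions lower in the knockout (left) and of listed 5mC positions higher in the knockout (right), by distance in bp to the nearest wild-type-only or knockout-only position. The left panel includes neighbours of the same class, whose direction is fixed by the rule. Bars are 95% Wilson intervals over positions; the dashed lines are the shares over all listed positions, 35.6% and 40.3%.

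Most of the set was nevertheless isolated. Another wild-type-only position lay within 50 bp of 1371 positions (7.45%) and within 1000 bp of 3116 (16.9%). Any other listed 5hmC position lay within 1000 bp of 5739 (31.2%), and a listed 5mC position within 1000 bp of 2863 (15.6%). The 15284 positions with no other of the set within 1000 bp had a median wild-type level of 26.1%.

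Clusters, defined as 3 or more wild-type-only positions with gaps of at most 1000 bp, numbered 284 and held 1062 positions (5.77%). Their positions had a lower median wild-type level, 19.5%. In 249 clusters (87.7%) no position higher in the knockout lay between the first and last member. Members are lower by the rule and many clusters held no other listed position, so nothing is read from that share. In 50 clusters 130 listed 5mC positions lay inside, 114 of them higher in the knockout. Of the 284, 196 had 3 members, 21 had 6 or more, 109 touched a gene end and 66 lay outside genes and their ends. Knockout-only positions formed 307 clusters, which held 3.78% of that class, and the largest had 18 positions.

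The largest cluster lay in Norad, a long non-coding RNA gene whose transcript binds Pumilio proteins and guards chromosome stability. Within chr2:156392510-156392865, 20 of 21 listed positions belonged to the set, 114 to 469 bp from an end of Norad and inside the overlapping gene model Gm14170. Wild-type levels ran from 10.2% to 19.4% with a median of 13.0%, the knockout level was 0, and the smallest q was 0.673 in the authors' deposited table. The remaining position had 20% in wild type and 1.72% without HDAC6 in the authors' deposited table. All 21 positions were lower in the knockout, but for the 20 of the set this is the rule itself. No listed 5mC position lay within 1000 bp.

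At chr12:33780920-33781068, between genes, 13 of 26 listed positions belonged to the set, with wild-type levels from 19.1% to 35% and a smallest q of 0.00978 in the authors' deposited table. The other positions there mostly had a listed 5mC difference, and all 12 listed 5mC positions were higher in the knockout. Its nearest start site, of the transcription factor gene Ferd3l, was 147431 bp away. A further cluster between genes, chr8:120191141-120191374, held 11 of 11 listed positions at 13.6% to 25.6% in wild type, with no 5mC listed within 1000 bp.

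Crb2, which encodes a cell polarity protein, held 11 of 14 listed positions in chr2:37793328-37793652, from 11.6% to 31.1% in wild type, with a smallest q of 0.0132 in the authors' deposited table. Gm15609 and Shank3, the gene of a postsynaptic scaffold, shared a cluster of 10 of 10 listed positions within 80 bp, chr15:89523575-89523654, at 19.4% to 26.5% in wild type. Within 1000 bp of that cluster but outside it, 4 5mC positions were listed, and none was higher in the knockout. Between the cluster and these positions lay a knockout-only 5hmC position, at 30% in the knockout. Listed 5mC within 1000 bp of clusters therefore differed in direction.

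Oxct2a, a testis-type ketone body transferase gene lying inside Bmp8a, held 9 of 14 listed positions in chr4:123322670-123323581, from 12% to 18.9% in wild type, and all 10 listed 5mC positions there were higher in the knockout. The related pair Oxct2b and Bmp8b held a cluster of 6 at 10.5% to 30.9%. These genes have close copies, and the sources used here do not say how reads matching both were placed. Dhx35, an RNA helicase gene, held 7 of 7 listed positions within 41 bp at 13.8% to 17.8%, with a smallest q of 0.00067 in the authors' deposited table. The clusters at Oxct2a, Oxct2b and Dhx35 were chosen after their values were seen, as was chr6:47763342-47763658 between genes, with 9 of 12 positions and a smallest q of 1.37e-11 in the authors' deposited table.

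**Figure D3:**
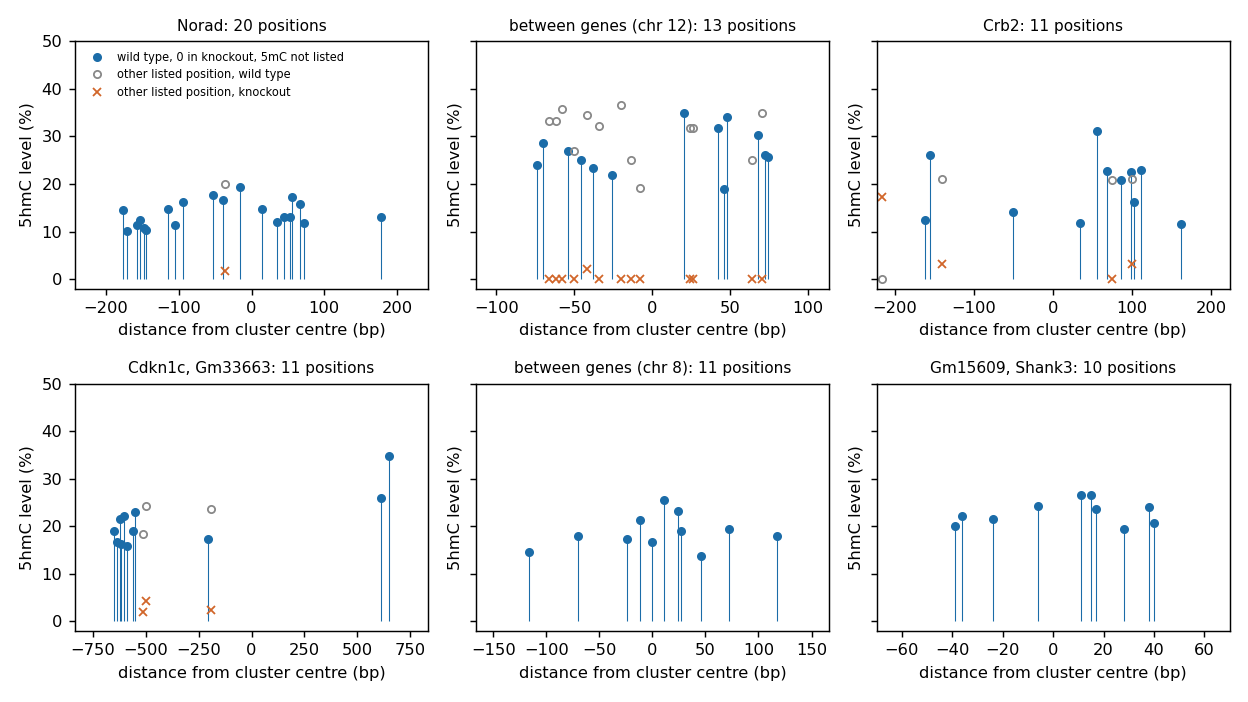
5hmC levels in percent across the 6 clusters with the most wild-type-only positions, by distance in bp from the cluster centre. Filled points are wild-type levels of wild-type-only positions. Open points and crosses are wild-type and knockout levels of other listed positions, most of which were also lower in the knockout. At the left of the Crb2 panel stands a position at 0 in wild type that had a listed 5mC difference.

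Counted by gene, 7997 of the 17177 genes with listed 5hmC held a wild-type-only position, and 1323 held 3 or more. The highest counts fell on the protocadherin locus of chromosome 18, which encodes neuronal adhesion proteins from arrays of first exons. Its overlapping gene models Gm37013, Gm38666 and Gm38667 held 64, 56 and 56 positions, and Gm37013 also held 43 knockout-only ones among 149 listed. Pcdha1, Pcdhga1, Pcdhga2, Pcdhga3 and Pcdhgb1 held 23 each; these models overlap and the Pcdhga and Pcdhgb1 counts are largely the same positions. Gse1, a coiled-coil protein gene, held 28 with 21 knockout-only ones among 85 listed, and Rbfox3, a neuronal splicing factor gene, 23 with 32. Both classes were numerous in these long genes.

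The genes under 50 kb with the most wild-type-only positions were picked for that count, so their surplus over knockout-only positions follows from the choice. Norad held 20 wild-type-only and 0 knockout-only positions among 22 listed, Cdkn1c 15 and 0 among 18, and Crb2 11 and 3 among 20. Bmp8a held 12 and 2 among 22, and Oxct2a, inside it, 11 and 2 among 18. Every listed position of Norad and of Cdkn1c was lower in the knockout.

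Imprinted genes, which are expressed from 1 parental allele under control of allele-specific DNA methylation, had the highest share of wild-type-only positions among 11 gene lists. Of their 203 listed 5hmC positions, 87 belonged to the set (42.9%, 95% Wilson interval 36.2 to 49.7%), against 25.6% of all listed positions, and 18 of the 24 imprinted genes with listed 5hmC held at least 1. Without Kcnq1, Kcnq1ot1 and Cdkn1c, which are neighbours, it was 56 of 140 (40%). Knockout-only positions were 65 of the 203 (32.0%), against 41.5% of all listed positions. Without these 3 genes they were also 56 of the 140 (40%), as many as those of the set. The median wild-type level of the 87 positions was 18.9%, and q was under 0.05 at 1 of them, in Impact, a translation regulator gene, at 43.6% (q = 0.0261 in the authors' deposited table).

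Cdkn1c encodes p57, a cyclin-dependent kinase inhibitor expressed from the maternal allele and known for keeping blood stem cells quiescent. Its 15 wild-type-only positions ran from 15.8% to 34.8% with a median of 18.9% in the authors' deposited table. The other 3 listed positions went from 18.4% to 1.92%, from 24.3% to 4.17% and from 23.7% to 2.44%. The 0 in the knockout at the 15 positions is the rule itself, and the smallest q among them was 0.744 in the authors' deposited table. In chr7:143460336-143461638, 11 of 14 listed positions clustered over 1303 bp.

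Kcnq1ot1, the long non-coding RNA whose promoter lies in the imprinting control region of this domain, had 28 listed positions, of which 27 were lower in the knockout and 9 belonged to the set. In chr7:143295570-143296335 these 9 were at 11.8% to 25% in wild type, and all 15 listed 5mC positions there were higher in the knockout. The other 5hmC positions of the stretch were lower in the knockout as well and fell outside the set through a listed 5mC difference. H19 had 3 of 4, Igf2 2 of 3, Peg3 2 of 2, Dlk1 6 of 9 and Gnas 13 of 29 listed positions in the set. Gnas also held 12 knockout-only positions. Other imprinted genes held more knockout-only positions than positions of the set, with 7 to 5 at Igf2r, 7 to 4 at Airn, 5 to 3 at Snrpn and 5 to 2 at Grb10. Ndn, Magel2, Mirg and Plagl1 had knockout-only positions and none of the set.

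Mest, an imprinted hydrolase gene, showed both directions in separate blocks. It held 8 wild-type-only and 8 knockout-only positions among 17. From the lower coordinate upward, 1 position was higher in the knockout (57.1%), then 6 were lower in chr6:30735284-30736881, at 25% to 30.8% in wild type. Next came 7 higher ones in chr6:30737109-30737243, at 17.6% to 55.0% in the knockout (smallest q 0.0449 in the authors' deposited table), and 3 lower ones in chr6:30738273-30738286, at 16.1% to 22.9% in wild type. Nap1l5, with 4 knockout-only positions of 4, had none of the set.

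**Figure D4:**
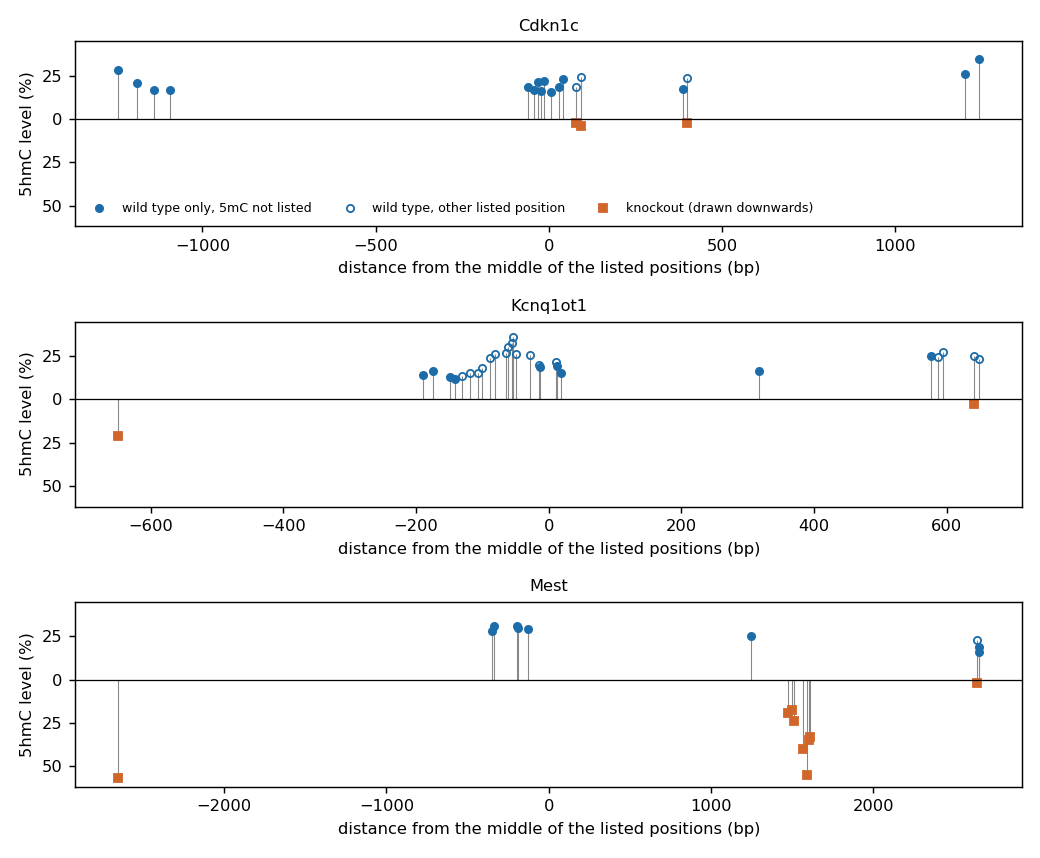
5hmC levels in percent at every listed position of Cdkn1c, Kcnq1ot1 and Mest, with wild type drawn upward and knockout downward, by distance in bp from the middle of the listed positions. Cdkn1c has 18 of 18 positions lower in the knockout, Kcnq1ot1 27 of 28, and Mest alternates between blocks.

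Genes of blood stem cell identity and self-renewal had 68 wild-type-only positions among 282 listed, 24.1%, close to the 25.6% of all listed positions, spread over 21 of 32 genes with listed 5hmC. Msi2, an RNA-binding regulator of self-renewal, held 13 of 49, Etv6, a transcription factor of stem cell maintenance, 9 of 42, and Prdm16 7 of 40. Erg, an ETS transcription factor, held 5 of 8 and no knockout-only position. Position chr5:75586507 in Kit, the receptor that defines the c-Kit gate, was at 30.3% in wild type and read at 0 without HDAC6 (q = 0.634 in the authors' deposited table). Meis1 had 4 knockout-only positions of 5 and none of the set.

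Enzymes of DNA methylation, its oxidation and the isocitrate step had 11 wild-type-only positions among 48 listed (22.9%), in 8 of 14 genes with listed 5hmC; the list also holds Hdac6, with 1 of its 2 listed positions. Of the methyltransferases, Dnmt1 had 1, chr9:20959243, at 71.4% in wild type, and Dnmt3a had 2 of 15, with 18.9% and 35% in the authors' deposited table. Among TET oxidases, Tet1 had 1 at 25% and Tet3 had 2 at 28.2% and 25.9%. D2hgdh, which removes 2-hydroxyglutarate, had 1 at 28.8% (q = 0.107 in the authors' deposited table), and Ogdh, which consumes 2-oxoglutarate, 2 of 2 at 23.1% and 32.3%. Idh2 had 4 listed positions, all knockout-only, and no listed position was assigned to Idh1.

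Lineage lists stood on either side of the share over all listed positions. Myeloid genes had 14 of 63 (22.2%), with 4 of 6 at Spi1, the PU.1 gene, where chr2:91096067 was at 31.0% in wild type (q = 0.0541 in the authors' deposited table). Erythroid and megakaryocyte genes had 22 of 101 (21.8%), 6 of them at Zfpm1, a GATA1 cofactor gene. Lymphoid genes had 38 of 123 (30.9%), among them 7 of 19 at Foxp1 and chr12:25093098 near Id2 at 47.8%. Stromal, endothelial and bone genes had 29 of 85 (34.1%), and near Alpl, the alkaline phosphatase gene of bone, chr4:137797967 was at 53.1%. The fractions of other cell types in the sorted cells were not measured.

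Wnt and Notch genes had 42 of 137 (30.7%), with 5 of 12 at Notch3, where chr17:32128238 was at 60.9% in wild type (q = 0.0588 in the authors' deposited table). Acetylation enzymes had 25 of 88 (28.4%). Myeloid leukaemia genes had the lowest share, 14 of 74 (18.9%). Cell cycle and quiescence genes had 29 of 69 (42.0%), but 15 of these lay at Cdkn1c, and without it 14 of 51 (27.5%). The intervals of all lists but the imprinted and cell cycle lists included 25.6%, as the plot of shares by list shows.

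**Figure D5:**
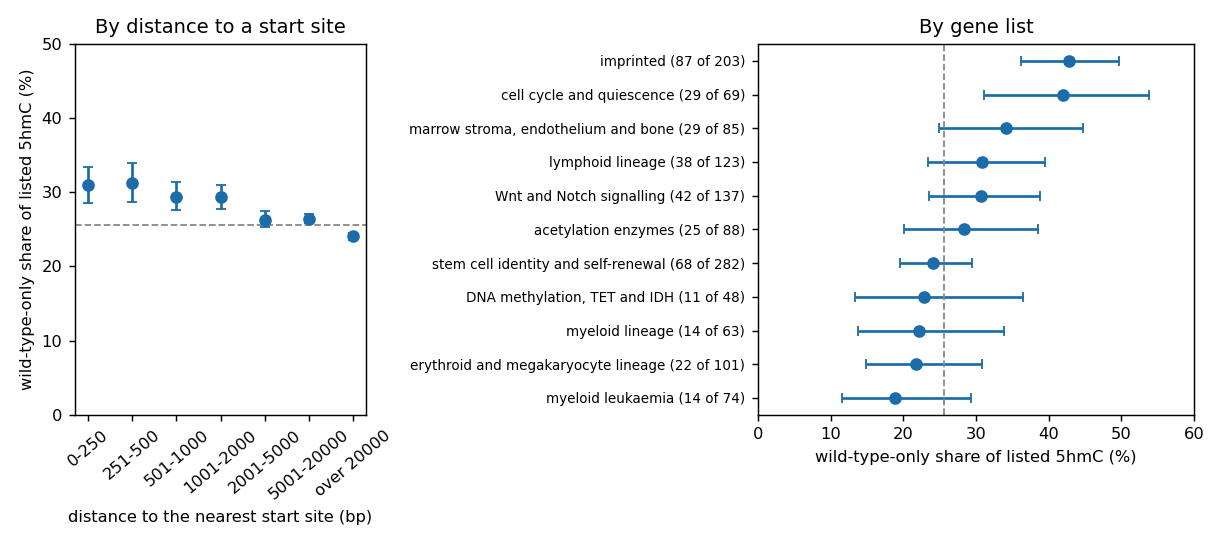
Wild-type-only positions as a percent of listed 5hmC positions, by distance in bp to the nearest start site (left) and by gene list (right). Bars are 95% Wilson intervals over positions, the dashed line is the 25.6% of all listed positions, and the imprinted list is highest at 42.9%.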

How the data were processed

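The 4 libraries were WGBS and oxWGBS libraries of LSK cells, 1 per genotype and assay. Per the labels' protocols, DNA was sonicated to about 250 bp, ligated to methylated adapters, bisulfite-converted and sequenced. The sources used here name no aligner, caller, coverage minimum or test.

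Per the file headers, the authors deposited for each listed cytosine a wild-type and a knockout level as a fraction, printed here as percent. The authors' difference is a score that equals knockout minus wild type within 0.0001. The p-value and q-value of each position are deposited by the authors; every listed p lay under 0.01. Depth per library is unknown, so no interval is given for a level.

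The submitters' processing notes name GRCm39, but all 778 listed 5hmC and 412 listed 5mC positions in promoter windows fell on the C of a CG in GRCm38.p6, which was used. All entries are on the plus strand and no listed 5hmC positions were 1 bp apart, so the planned share over such neighbours has no value. Start-site windows on chromosome 18 and scaffolds were not used.

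Positions were assigned to 34631 RefSeq genes if inside or within 2000 bp of an end. Of 322 gene list entries 320 matched. Shares carry 95% Wilson intervals, which cover counting error over positions only. Named were the 12 positions with the smallest p in or near genes and the 3 smallest outside, the 10 genes with the most members and 6 under 50 kb, the 6 largest clusters, and the leading positions of each list. Members and lists were chosen with earlier results of these data known. With 1 library per group no genotype test was run. Alternative thresholds, distances and gene sets were tried. Python 3.11.15, numpy 2.4.6, pandas 2.3.3, scipy 1.17.1 and matplotlib 3.10.9 were used, and the scripts were tested on simulated data.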

Additional observations from a re-analysis of the deposited data

How the results depend on the processing

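No paired analysis was possible because each group has 1 library. Of 33 alternative values, 16 stayed within the interval or near the count reported and 17 moved. With wild-type 5hmC of at least 0.25 as a fraction, 9711 positions remained, of which 19.4% lay near gene ends, 44.5% lay inside genes, and 62.1% of neighbouring 5hmC positions were lower in the knockout. The gene end share was 20.4% with one position per 1000 bp, 15.6% with protein-coding genes only, 6.93% at 500 bp and 36.4% at 5000 bp; knockout-only positions stood at 17.0% with levels of at least 0.25. Inside protein-coding genes lay 40.7%. Neighbouring 5hmC was lower at 83.6% within 100 bp, 43.6% within 10000 bp and 30.9% without neighbours of the set, against 60% within 1000 bp. Leaving out the set removes most lower positions by construction, and without it the share was 13.0% at 5001 to 20000 bp. Neighbouring 5mC was higher at 83.2% within 100 bp and 48.3% within 10000 bp, against 60.8%. A q under 0.01 left 105 positions, and gaps of at most 200 bp gave 186 clusters. The cell cycle share without Cdkn1c, 27.5%, and the imprinted share without Kcnq1, Kcnq1ot1 and Cdkn1c were chosen after seeing the data. The cause of these shifts was not tested beyond what each setting itself changes. Coverage is not stated and no spread between animals can be estimated, so a level of 0 may rest on few reads and no value describes the genotypes as populations.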

Other observations

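The microRNA genes Mir292 and Mir292b, overlapping hairpins of a cluster known from mouse embryonic stem cells, held 1 wild-type-only position, chr7:3219231, at 21.1% in wild type and read at 0 without HDAC6; its p was 0.00539 in the authors' deposited table.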
